A study of Mus musculus with 8 samples.

Results

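The 38 genes described here encode the Wnt ligands (19 genes), the Frizzled receptors (10) and the secreted inhibitors of the Sfrp, Dkk and Wif1 families (9), out of 34324 annotated protein-coding and lncRNA genes on the autosomes and X. They were taken by name, all 38 were found in the annotation, and all lie on autosomes. H3K27me3, the histone mark of Polycomb repressive complex 2, was mapped by ChIP-seq in neural stem cells of female mice, with 2 libraries per genotype among the 8 samples of the series. Cells of genotype Smchd1 del/del had received Cre recombinase and puromycin resistance from a retrovirus, were put under puromycin 24 hours later and were harvested 7 days after transduction. Cells of genotype Smchd1 del/fl stayed untransduced. The lines came from E14.5 embryos and were divided between both arms, but which libraries share a line is not stated. Both groups carried the Xist 129-KO allele (deltaA) on the maternal X and a wild-type Castaneus allele on the paternal X, on a mixed C57BL/6, 129 and Castaneus background. Smchd1 is a chromatin protein that the inactive X needs to stay silent. The comparison asks whether the mark at Wnt pathway genes depended on Smchd1, but deletion, transduction and selection occurred in the same cells and cannot be told apart.

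Wnt proteins are lipid-modified secreted ligands that bind Frizzled receptors at the cell surface, together with co-receptors such as Lrp5 and Lrp6, and so stabilise beta-catenin or steer cell polarity. Sfrp proteins and Wif1 bind the ligands, and Dkk proteins such as Dkk1 bind the Lrp co-receptors and so restrain the pathway. In the embryonic brain Wnt signals pattern the neural tube and act on the division of neural progenitors. Many genes of such developmental signals have promoters rich in CG dinucleotides, a kind of sequence at which Polycomb repressive complex 2 is often found.

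MACS2 used 11793402 to 14064030 ChIP tags per library after duplicates were removed, and the deposited lists held 32971 to 45566 peaks. Cover is the percent of a window that lies inside a deposited peak. The gene-end window is 2.5 kb on either side of each annotated end of a gene, so that a gene with 1 fully marked end and 1 bare end has 50% cover. A peak list does not show whether a mark was weak in all cells or present in some of them, and a window without a peak may still hold signal under the peak caller's threshold. Of 15 listed genes of neural stem cells, 12, Sox2, Nes and Vim included, had no peak at their ends. That is near the share without a peak among autosomal protein-coding genes, 74.7%. Pax6 had 9.01% and 16.7% (del/del) against 8.7% and 22.1% (del/fl). Prom1 had 0% and 16.7% (del/del) against 2.67% and 17.1% (del/fl), and Sox1 had 0% and 0% against 1.83% and 2.28%. In the microglial and blood list 5 of 6 genes also had none, and in the neuronal list 1 of 8, so cover alone does not identify the cells. The count was 5 of 8 for astrocytes and oligodendrocytes, 2 of 6 for endothelial and mural cells and 3 of 7 for fibroblasts. Mean cover over the neuronal list was 33.4% and 37.9% (del/del) against 37.2% and 37.5% (del/fl). That mean includes the X-linked gene Dcx, with 96.7% and 100% (del/del) against 100% and 84.3% (del/fl). The part of other cell types in the results below was not tested.

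Promoter sequences from RefSeq (GRCm38.p6, the assembly of mm10) were matched for 26 of the 38 genes, each running from 250 bases before to 50 after the annotated start. 6 are printed in full because they span the outcomes described below. Wnt16 and Wif1 had the largest differences between genotypes at gene ends and Wnt10b the largest over the gene body. Wnt9b had a fully marked start in every library, and Fzd7 and Sfrp2 were free of peaks. Capitals mark each CG dinucleotide, and sequences run 5′ to 3′ on the gene's own strand. The windows are Wnt16 at chr6:22287977-22288276 on the plus strand with 10 CG dinucleotides, Wif1 at chr10:121033754-121034053 on the plus strand with 25 CG dinucleotides and Wnt10b at chr15:98778101-98778400 on the minus strand with 18 CG dinucleotides. The others are Wnt9b at chr11:103749772-103750071 on the minus strand with 29 CG dinucleotides, Fzd7 at chr1:59481897-59482196 on the plus strand with 24 CG dinucleotides and Sfrp2 at chr3:83766071-83766370 on the plus strand with 22 CG dinucleotides.
Wnt16: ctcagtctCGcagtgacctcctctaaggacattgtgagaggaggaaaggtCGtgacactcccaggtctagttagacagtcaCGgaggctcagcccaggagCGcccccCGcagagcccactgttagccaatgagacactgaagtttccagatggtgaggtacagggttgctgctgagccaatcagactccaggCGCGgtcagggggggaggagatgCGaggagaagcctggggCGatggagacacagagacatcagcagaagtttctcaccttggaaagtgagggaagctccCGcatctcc
Wif1: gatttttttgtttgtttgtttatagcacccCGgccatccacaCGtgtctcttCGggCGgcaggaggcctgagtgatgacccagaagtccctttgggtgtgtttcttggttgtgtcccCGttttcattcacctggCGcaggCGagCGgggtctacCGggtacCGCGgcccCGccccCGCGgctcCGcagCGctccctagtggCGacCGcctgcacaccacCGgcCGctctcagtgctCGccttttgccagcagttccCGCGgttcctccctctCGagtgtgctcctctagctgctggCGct
Wnt10b: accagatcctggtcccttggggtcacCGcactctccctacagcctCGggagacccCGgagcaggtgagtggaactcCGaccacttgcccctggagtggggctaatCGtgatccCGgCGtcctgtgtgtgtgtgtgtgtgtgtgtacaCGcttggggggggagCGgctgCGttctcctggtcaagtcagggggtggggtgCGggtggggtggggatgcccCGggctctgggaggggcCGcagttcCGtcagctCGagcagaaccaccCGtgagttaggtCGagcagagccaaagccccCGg
Wnt9b: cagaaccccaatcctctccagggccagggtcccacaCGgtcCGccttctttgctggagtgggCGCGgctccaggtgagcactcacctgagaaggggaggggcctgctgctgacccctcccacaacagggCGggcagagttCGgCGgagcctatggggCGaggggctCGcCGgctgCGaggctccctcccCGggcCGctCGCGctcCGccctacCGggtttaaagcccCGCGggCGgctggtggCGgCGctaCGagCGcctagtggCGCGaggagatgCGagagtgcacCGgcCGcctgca
Fzd7: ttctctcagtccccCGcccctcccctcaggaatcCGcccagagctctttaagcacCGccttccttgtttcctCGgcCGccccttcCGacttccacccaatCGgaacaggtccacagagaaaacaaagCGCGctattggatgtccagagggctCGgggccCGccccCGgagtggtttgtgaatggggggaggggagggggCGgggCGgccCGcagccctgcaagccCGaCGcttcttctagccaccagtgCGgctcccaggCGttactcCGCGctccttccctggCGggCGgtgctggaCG
Sfrp2: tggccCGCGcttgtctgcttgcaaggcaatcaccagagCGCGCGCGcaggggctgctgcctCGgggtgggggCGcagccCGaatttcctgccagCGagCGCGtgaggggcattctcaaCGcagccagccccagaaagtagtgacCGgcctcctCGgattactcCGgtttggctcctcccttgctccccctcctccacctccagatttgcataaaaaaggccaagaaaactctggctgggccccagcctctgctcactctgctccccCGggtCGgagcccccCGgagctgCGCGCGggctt

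The 3 roles were marked very differently in both genotypes. A peak was present at the ends of 14 of 19 ligand genes in all 4 libraries, at 6 of 9 inhibitor genes and at 1 of 10 receptor genes. Among 20661 autosomal protein-coding genes the share with a peak in all 4 libraries was 12.4%, and 74.7% had no peak in any library. Mean cover over the 19 ligand genes was 39.8% and 42.1% (del/del) against 41.6% and 44.9% (del/fl). Over the 9 inhibitor genes it was 30.9% and 30.4% against 29.99% and 32.6%. Over the 10 receptor genes it was 1.61% and 1.81% against 1.98% and 2.51%, below the 4.35% to 5.60% of autosomal protein-coding genes as a whole. The order of ligands, inhibitors and receptors was therefore the same in each of the 4 libraries, and it is a description of a named list with no test. With stricter peaks only (−log10 q of at least 5), 10 ligands, 3 inhibitors and no receptor had a peak in all 4 libraries.

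**Figure D1:**
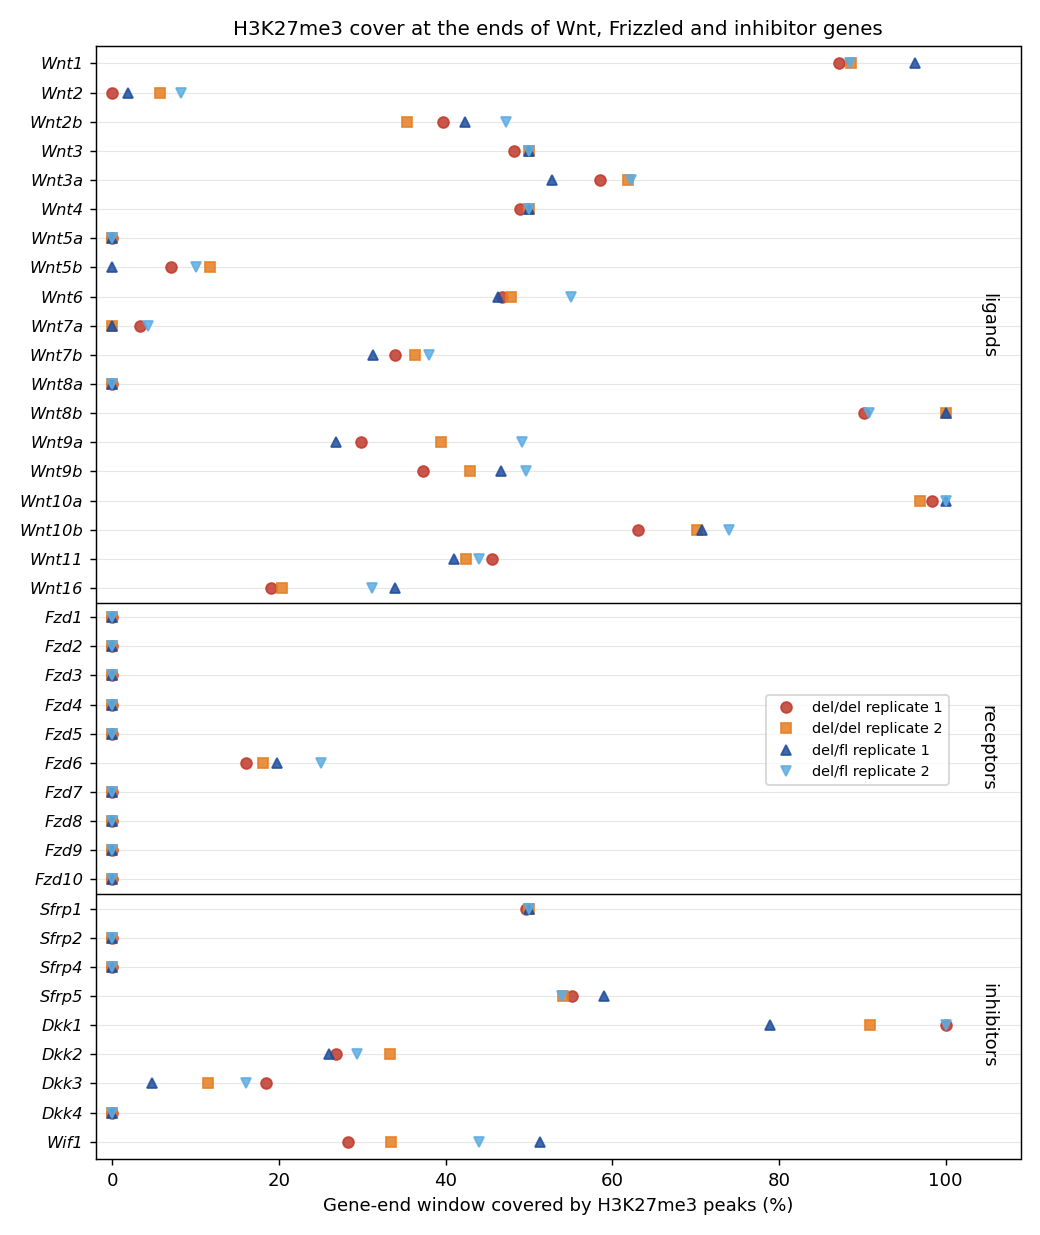
Percent of the gene-end window (2.5 kb on either side of each annotated gene end) covered by H3K27me3 peaks for each of the 38 genes, with 1 point per library. 14 of 19 ligands are marked in every library, and 9 of 10 receptors sit at 0% in all 4.

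Among the ligands, Wnt10a, Wnt8b and Wnt1 were the most covered. Wnt10a, a ligand of skin appendages and teeth, had 98.3% and 96.9% (del/del) against 100% and 100% (del/fl). Wnt8b, a ligand of the developing hippocampal region, had 90.3% and 100% (del/del) against 100% and 90.8% (del/fl). Wnt1, a ligand of the midbrain and hindbrain boundary and the dorsal neural tube, had 87.2% and 88.7% (del/del) against 96.3% and 88.5% (del/fl). The gene bodies of these 3 genes were 100% covered in all 4 libraries. Wnt1 had 1 peak of 10121 and 10446 bp (del/del) and 11071 and 15712 bp (del/fl), and Wnt8b had peaks of 26.9 to 51.7 kb. The median autosomal peak was 742 to 835 bp long, and at least 97.3% of autosomal peaks in each list were shorter than the longest peak at each of these 3 genes.

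Wnt3a and Wnt3, ligands that drive beta-catenin signalling in the early embryo, were marked at their start. At the annotated start of Wnt3a, all 4 libraries had 100% of the 2.5 kb to each side covered. At Wnt3 the start-site window was 96.4% and 100% (del/del) against 100% and 100% (del/fl). The peak caller's own fold enrichment of the strongest peak was 9.87 to 13.4 at Wnt3a, 9.95 to 11.5 at Wnt3 and 11.2 to 11.8 at Wnt1. In each list at least 99.4% of autosomal peaks had a lower value. Wnt4, which acts in kidney and gonad development, had a start-site cover of 97.8% and 100% (del/del) against 100% and 100% (del/fl), with a lower fold enrichment of 5.35 to 6.60.

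Of the other ligands with less than 50% cover in every library, Wnt9a had 29.8% and 39.5% (del/del) against 26.9% and 49.2% (del/fl), with replicate 2 the higher in each genotype. Wnt11, a ligand of cell movement in the embryo, had 45.5% and 42.4% (del/del) against 41% and 44% (del/fl). Wnt7b, which acts in lung and brain vessels, had 33.9% and 36.3% (del/del) against 31.3% and 38% (del/fl). The genotypes overlapped at all 3.

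The ligands without a peak in any library were Wnt5a, a ligand of the polarity branch, and Wnt8a. The nearest peak to Wnt5a was 38.4 to 416.8 kb away, and to Wnt8a 121.4 to 171.5 kb. Wnt7a, Wnt2 and Wnt5b had peaks in some libraries only. Wnt7a, a ligand of neural progenitors and brain vessels, had 3.29% and 0% (del/del) against 0% and 4.31% (del/fl), from peaks of 329 and 431 bp. Wnt2 had 0% and 5.67% (del/del) against 1.89% and 8.27% (del/fl), and Wnt5b had 6.99% and 11.7% (del/del) against 0% and 10.04% (del/fl). At the ends of these 3 genes the genotypes overlapped. Their peaks were no longer than 1.171 kb, against at least 2.041 kb for the longest peak at each of the 14 ligands marked throughout. No ligand, receptor or inhibitor gene was gained (marked in each del/del library but no del/fl library) or lost (the opposite). Over autosomal genes with a peak, these shares were 1.56% and 2.48%.

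**Figure D2:**
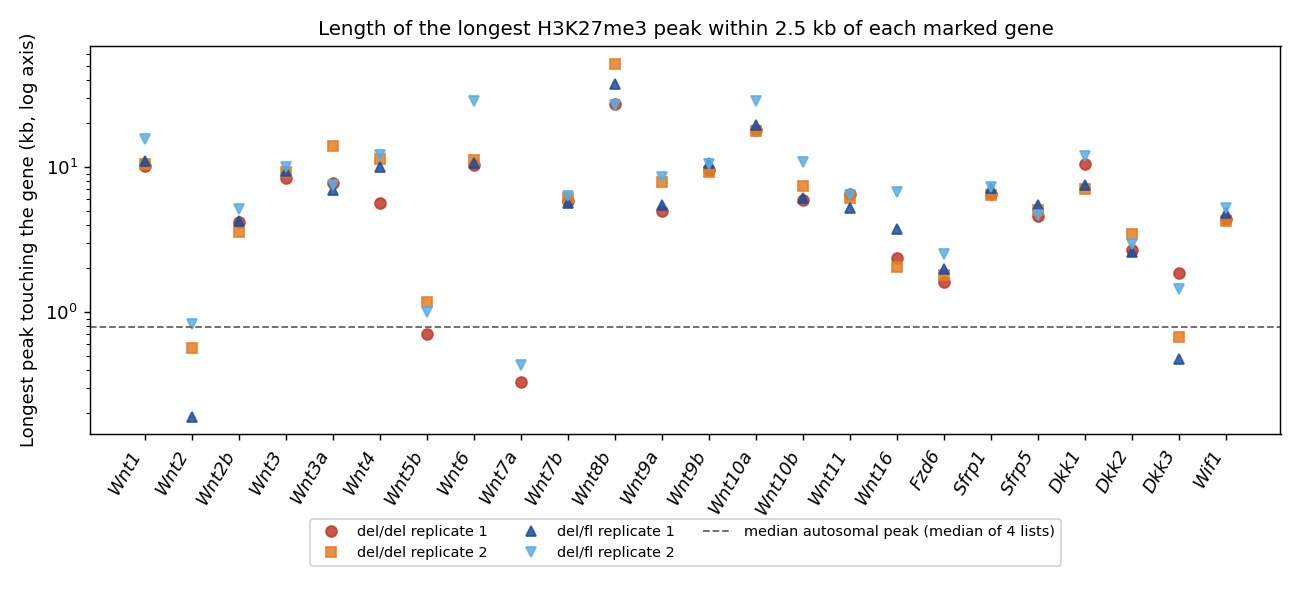
Length in kb (log axis) of the longest H3K27me3 peak that touches each marked gene or its 2.5-kb flanks, with 1 point per library in which a peak was present; the dashed line is the median autosomal peak. Wnt8b has the longest peaks, up to 51.7 kb, and the peaks at Wnt2, Wnt5b and Wnt7a do not exceed 1.171 kb.

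Of the 10 Frizzled genes, Fzd1, Fzd2, Fzd3, Fzd4, Fzd5, Fzd7, Fzd8, Fzd9 and Fzd10 had no peak at their ends or in their bodies in any of the 4 libraries. The nearest peak in any library was at least 12.3 kb away (Fzd2), and for Fzd5 at least 221.4 kb. The exception was Fzd6 (chr15:39006149-39038192), a receptor known for hair and tissue polarity. Its gene-end cover was 16.1% and 18.1% (del/del) against 19.8% and 25.1% (del/fl), from 1 peak of 1.607 to 2.508 kb at its lower-coordinate end. Both del/del libraries lay below both del/fl libraries. The difference was -5.37 points (SE 2.64) and did not pass limma's test (adjusted p = 0.624). It was -2.72 points without del/fl replicate 2 and -2.68 with windows of 5 kb. With stricter peaks Fzd6 had 0% in both del/del libraries and 19.8% and 25.1% in del/fl, a difference of -22.4 points (limma, adjusted p = 0.0939). The peak itself was present in all 4 libraries. Its −log10 q was 4.87 and 4.33 (del/del) against 5.89 and 7.01 (del/fl), so the threshold of 5 fell between the genotypes.

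The inhibitors divided. Dkk1, a Dkk family antagonist that binds Lrp5 and Lrp6 and is needed for head formation, was the most covered, with 100% and 91% (del/del) against 79% and 100% (del/fl). The body of Dkk1 was fully covered in all 4 libraries. Sfrp5 and Sfrp1, secreted proteins with a Frizzled-like ligand-binding domain, had 55.1% and 54.1% (del/del) against 59% and 54% (del/fl), and 49.7% and 50% (del/del) against 50% and 50% (del/fl), respectively. Dkk2 had 26.8% and 33.3% (del/del) against 25.9% and 29.4% (del/fl). Dkk3, the divergent member of its family, was sparsely covered, with 18.5% and 11.5% (del/del) against 4.71% and 16% (del/fl), and the genotypes overlapped at each of these 5 genes. Sfrp2, Sfrp4 and Dkk4 had no peak in any library, and the nearest peak was at least 16.1, 59.8 and 68.6 kb away.

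Cover was highest around the start sites of ligand and inhibitor genes. Start sites were known for 26 genes: 15 ligands, 6 receptors and 5 inhibitors. Fzd6, the only receptor with a peak, had no known start, so the receptor values at start sites leave it out. Among the ligands, Wnt5a and Wnt8a, which had no peak, and Wnt7b and Wnt10a, which were marked, are also left out. In the 2 bins of 1 kb that flank the start, mean cover over the 15 ligands was 75.1% and 76.2% (del/del) against 77.0% and 81.7% (del/fl). It was 64.7% and 66.2% against 65.7% and 66.6% over the 5 inhibitors, and 0% over the 6 receptors in all 4 libraries. Over 16456 autosomal protein-coding start sites it was 5.87% to 7.47%. Around ligands, mean cover was still 26.9% to 35.7% at 10 to 25 kb upstream and 19.8% to 24.3% at 10 to 25 kb downstream. Some of these stretches hold peaks of neighbouring ligand genes. The stretch upstream of Wnt9b reaches the peak at the start of Wnt3, and that upstream of Wnt10b reaches the peak at Wnt1. The part due to neighbours was not computed, so these means do not show how far the mark of a single gene extends. Around inhibitors it was 0.325% to 1.81% upstream and 2.49% to 4.21% downstream. Of 11 ligand genes with a peak at 1 end only, 9 had it at an annotated start. At Wnt7b no promoter was matched, and the marked end of Wnt9b is the one it shares with Wnt3.

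**Figure D3:**
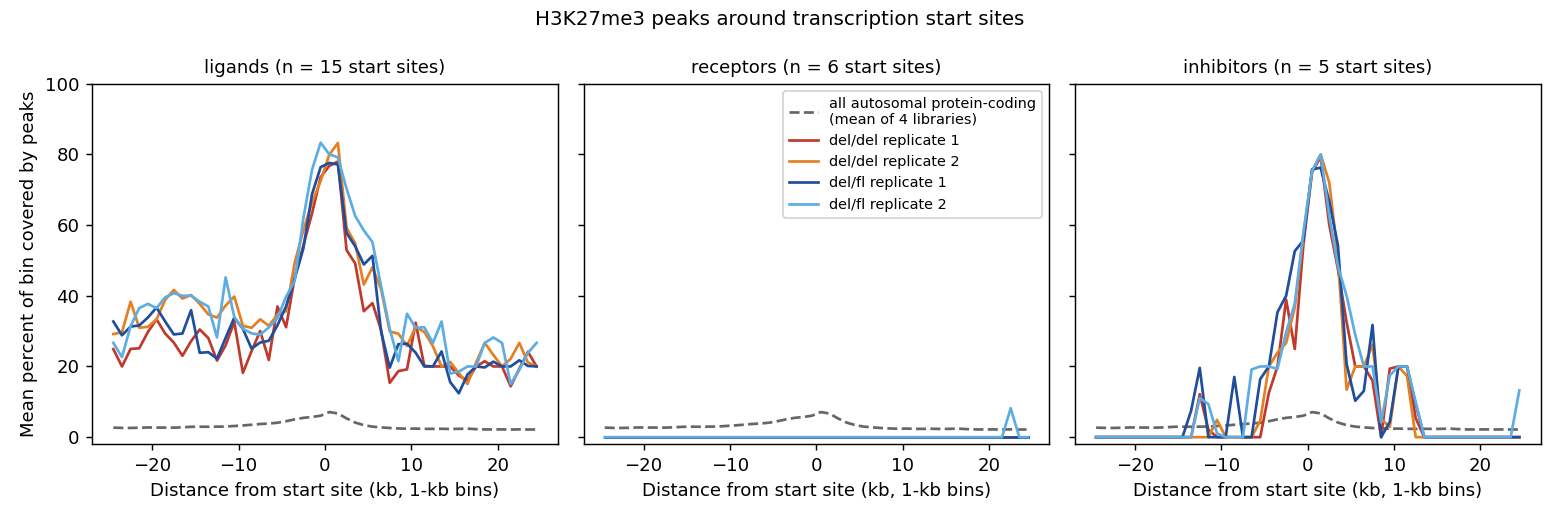
Mean percent of each 1-kb bin covered by H3K27me3 peaks against distance from the transcription start site (kb, upstream to the left), 1 line per library, for 15 ligands, 6 receptors and 5 inhibitors; the dashed line is the mean of the 4 libraries over 16456 autosomal protein-coding start sites. Cover of ligands and inhibitors is highest near the start in all 4 libraries, and the 6 receptors lie at 0% there. Fzd6, the only receptor with a peak, had no known start and is not among the 6.

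Wnt genes often lie in pairs, so their windows are not independent. Wnt9b and Wnt3 overlap on chromosome 11, and in each of the 4 libraries 1 peak of 8.44 to 9.98 kb touched both (103768053-103776495 in del/del replicate 1). The gene-end cover of Wnt9b came from this peak at the start of Wnt3, while the listed start of Wnt9b, inside the annotated gene, was 100% covered in all 4 libraries by another peak. Wnt6 and Wnt10a lie 6696 bp apart on chromosome 1. The stretch between them was 85.3% and 84.8% covered (del/del) against 84.6% and 100% (del/fl). In del/fl replicate 2 a single peak of 28.3 kb touched both genes, and in the other 3 libraries separate peaks did. Between Wnt10b and Wnt1, 11650 bp apart on chromosome 15, cover was 43.0%, 42.8%, 52.4% and 42.6% in del/del replicates 1 and 2 and del/fl replicates 1 and 2. Between Wnt3a and Wnt9a, 16097 bp apart on chromosome 11, it was 62.9%, 72.5%, 61.6% and 72.5% in the same order, so that replicate 2 was the higher in both genotypes.

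Marked and unmarked members overlapped in CG content. The 16 members marked in all 4 libraries and with a matched promoter had a median of 25.5 CG dinucleotides in 300 bases (range 6 to 58). The 7 members with no peak, 6 of them receptors, had a median of 32 (range 16 to 53). Over 27025 genes the median was 7. The letters CG were counted on the listed strand, and a promoter with at least 15 of them was found for 12 of the 16 marked members, 7 of the 7 without a peak, and 35.2% of all genes. Wnt8b and Dkk1 were fully covered at the start with 6 and 9 CG dinucleotides, whereas Fzd9 and Fzd10 had 53 and 45 and no peak. In the sequences above, Fzd7 with 24 and Wif1 with 25 had like numbers of CG, with 0% and 45.0% to 68.5% cover of the start-site window.

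**Figure D4:**
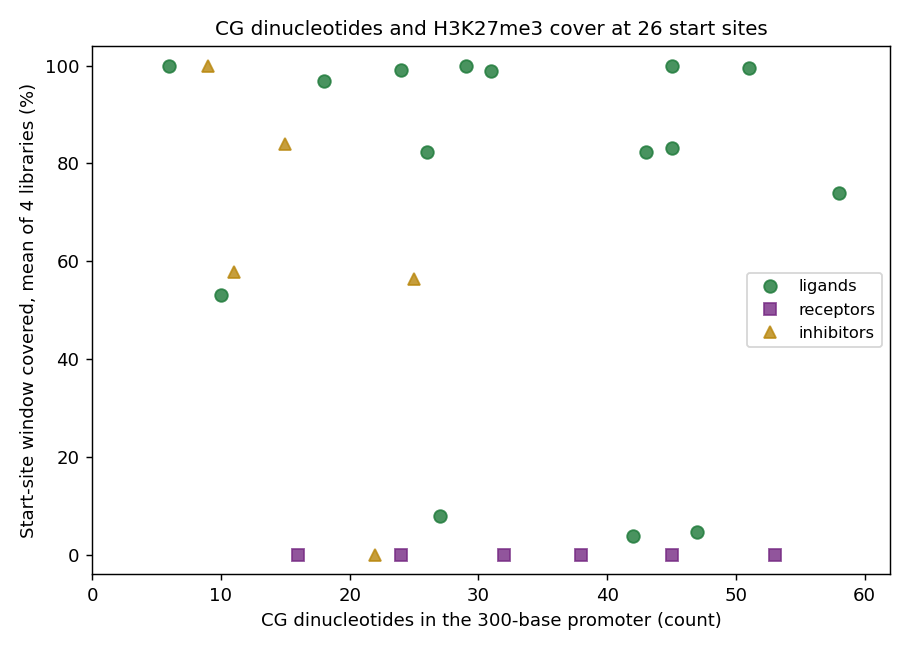
Cover of the start-site window (2.5 kb to each side, mean of the 4 libraries) against the number of CG dinucleotides in the 300-base promoter for 26 members, by role. The 6 receptors lie at 0% with 16 to 53 CG dinucleotides, and Wnt8b lies at 100% with 6. Fzd6, the only receptor with a peak, had no matched promoter.

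The genotypes were then compared gene by gene. Of the 24 members with a peak at their ends in any library, both del/del libraries lay below both del/fl libraries at 7 and above them at 0. The share of autosomal genes with such a pattern was 15.5% below and 6.36% above. Of those 8064 genes 3744 had a peak in all 4 libraries, against 21 of the 24 members. A gene with a peak in 1 library alone cannot show the pattern, so members and autosomal genes are not fully alike here or in the comparisons that follow. The 7 were 5 ligands (Wnt2b, Wnt9b, Wnt10a, Wnt10b and Wnt16), Fzd6 and Wif1. The mean was lower in del/del at 17 of 24 members and higher at 7, while it was lower at 57.7% of autosomal genes. The median difference was -1.39 points over the 24 members and -0.965 over autosomal genes with a peak. limma called 0 of the 24 members, and 0% of the 9131 genes fitted, at an adjusted p of 0.05. At an unadjusted p under 0.05 it marked 2 members, Wnt16 and Wif1, and 6.47% of autosomal genes. That replicates came from separate embryos is not stated, so these p-values measure only the spread between samples. With 2 libraries per group the smallest exact permutation p is 0.333.

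Wnt16, a ligand known for its part in bone, had the smallest p among the ligands (chr6:22288178-22298522). Its gene-end cover was 19% and 20.4% (del/del) against 33.9% and 31.2% (del/fl), all of it at the start. Both del/del libraries lay below both del/fl libraries, and the difference was -12.9 points (SE 1.66, limma, adjusted p = 0.275). The longest peak at Wnt16 was 2339 and 2041 bp (del/del) and 3737 and 6714 bp (del/fl). The strongest had a fold enrichment of 3.33 to 3.96, and none passed the stricter threshold, so there the gene had no cover in any library. Over the body of Wnt16 cover was 31% and 31.6% (del/del) against 32.2% and 58.9% (del/fl), and del/fl replicate 2 stood apart from the other 3. Without it the body difference was -0.831 points. Without del/fl replicate 1 the body of Wnt16 differed by -27.6 points (limma, adjusted p = 0.0215), a setting in which 14% of autosomal genes were also called lower.

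Wif1, a secreted protein that binds Wnt ligands, had the smallest p among the inhibitors (chr10:121034004-121100642). Its gene-end cover was 28.2% and 33.5% (del/del) against 51.3% and 44% (del/fl), and the genotypes did not overlap. The difference was -16.8 points (SE 4.01, limma, adjusted p = 0.423). It depended on the window, with -2.26 points within 1 kb of the ends and -6.43 within 5 kb. At the start-site window it had 45% and 52.5% (del/del) against 68.5% and 59.4% (del/fl), and at the other end 11.5% and 14.4% against 34.1% and 28.6%. Over the gene body the values were 12.6% and 21.1% (del/del) against 20.3% and 23.5% (del/fl), and the genotypes overlapped. With stricter peaks Wif1 had no cover in del/del replicate 2 and 22.5% to 22.9% in the other 3 libraries. The highest −log10 q at Wif1 was 4.27 in del/del replicate 2, under the threshold of 5, and 5.46 to 7.35 in the other 3.

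Wnt9b, a ligand of kidney and facial development, had 37.2% and 43% (del/del) against 46.6% and 49.6% (del/fl) at its ends, all from the peak at the start of Wnt3. Wnt2b, a ligand of the eye margin and cortical hem, had 39.7% and 35.4% (del/del) against 42.3% and 47.3% (del/fl). At both genes the libraries of the genotypes did not overlap, with differences of -7.99 points (SE 2.98) and -7.28 points (SE 3), and neither passed limma's test (adjusted p = 0.624 for both). Both differences were 0 within 1 kb of the ends, and within 5 kb they were -3.60 and -4.21 points. Without del/del replicate 1 the difference at Wnt9b was -5.12 points, and without del/fl replicate 2 that at Wnt2b was -4.80. At the listed start alone Wnt2b had 79.3% and 70.8% (del/del) against 84.7% and 94.6% (del/fl), without overlap. Over the members, all del/del libraries lay below all del/fl libraries at 3 of 21 within 1 kb. At the start alone they did so at 3 of 19 (Wnt2b, Wnt16 and Wif1), where Wnt10a and Fzd6 had no matched start. The share over autosomal genes is not given for these windows, so these counts describe the members only.

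**Figure D5:**
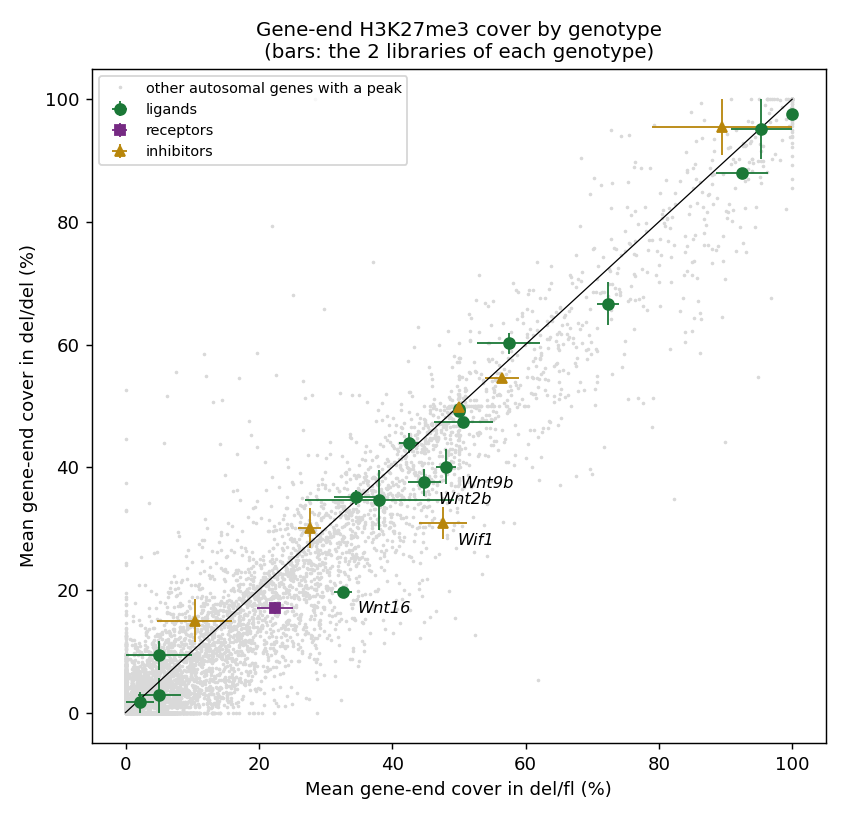
Mean gene-end cover in percent, with del/del on the vertical and del/fl on the horizontal axis, for the 24 members with a peak, by role, over all other autosomal genes with a peak in grey; bars span the 2 libraries of each genotype and the line marks equality. Of the members, Wnt16 and Wif1 lie farthest below the line, at 19.7% against 32.6% and 30.9% against 47.7%.

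Over gene bodies, 23 members had a peak in any library. Both del/del libraries lay below both del/fl libraries at 5 (Wnt6, Wnt7b, Wnt9b, Wnt10b and Wnt16) and above them at 1 (Wnt5b), against 14.7% and 6.74% of autosomal genes. A peak in all 4 libraries was present at 21 of the 23 members, but at 3858 of the 8292 autosomal genes. The mean was lower in del/del at 15 members, against 56.6% of autosomal genes. limma called 0 of the 23, and 0% of the 9331 gene bodies fitted, and 1 member (Wnt5b) had an unadjusted p under 0.05, against 5.73% of autosomal genes. The largest difference was at Wnt10b, a ligand known in fat and bone (chr15:98770712-98778206), with 54.9% and 79.8% (del/del) against 86.1% and 98.7% (del/fl). That is -25.1 points (SE 12.3, adjusted p = 0.657), and replicate 2 was the higher in both genotypes. Without del/del replicate 1 it was -12.6 points, and without del/del replicate 2 -37.5. Wnt6 had 54.5% and 53.1% (del/del) against 55.4% and 70.5% (del/fl), a difference of -9.15 points that was -1.60 without del/fl replicate 2 and -16.7 without del/fl replicate 1. The body of Wnt9b had 35% and 37.9% (del/del) against 38.3% and 41.7% (del/fl), and that of Wnt5b 0.622% and 1.04% (del/del) against 0% and 0.172% (del/fl).

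By role, mean gene-end cover over the ligands was 40.96% ± 1.60 (del/del) against 43.2% ± 2.33 (del/fl; SD, n = 2). It was 30.7% ± 0.395 against 31.3% ± 1.84 over the inhibitors, and 1.71% ± 0.141 against 2.24% ± 0.374 over the receptors, where Fzd6 is the only gene above 0%. The difference was within the larger SD for ligands and inhibitors. It was -2.26 points for ligands and -0.639 for inhibitors, and it had the opposite sign, 1.12 and 1.97 points, when each library was divided by its own autosomal cover. For inhibitors the sign also turned within 1 kb of the ends (0.85 points) and without del/fl replicate 2 (0.663). Without that library the difference was -0.614 for ligands and -0.272 for receptors. The autosomal gene-end windows were 4.12% and 4.90% covered (del/del) against 4.42% and 5.35% (del/fl).

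With stricter peaks 1 member passed limma's test: Wnt6, a ligand of epithelial tissues (chr1:74754342-74785322). Its ends were 0% covered in both del/del libraries and 46.3% and 50% in del/fl (adjusted p = 0.0108), while 2.4% of autosomal genes were called lower in that setting. All 4 libraries had a peak at this end. Its −log10 q was 4.08 and 4.13 in del/del, just under the threshold, and 5.03 in del/fl replicate 1, just over it. In del/fl replicate 2 the end lay in the 28.3-kb peak shared with Wnt10a, whose −log10 q was 15.1. With all deposited peaks the ends of Wnt6 had 46.8% and 47.9% (del/del) against 46.3% and 55.1% (del/fl).

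The wider pathway was read from 53 further genes, of which 24 had a peak at their ends in any library. limma called 0 of them. At an unadjusted p under 0.05 it marked 9, against 9.85% of all genes fitted, the X included, and 6.47% of autosomal genes. All del/del values exceeded all del/fl values at 4 and lay under them at 8, against 13.2% and 13.8% of all genes fitted. Among autosomal genes alone these shares were 6.36% and 15.5%. Of the 1202 fitted genes above, 513 were autosomal and the others X-linked, while 1253 of the 1260 below were autosomal. Of the 4 above, 3 are X-linked: Ndp, a Frizzled ligand outside the Wnt family, Amer1, a scaffold of the beta-catenin destruction complex, and Gpc4, a glypican co-receptor. Ndp had 96.3% and 100% (del/del) against 55% and 54.7% (del/fl) (limma, adjusted p = 0.175). Amer1 had 89% and 89.6% (del/del) against 48.3% and 61.4% (del/fl), and Gpc4 had 100% and 100% (del/del) against 82.6% and 90.6% (del/fl). Gpc3, another X-linked glypican, was 100% covered at its ends in all 4 libraries. X-linked Porcn, which encodes the enzyme that adds the lipid to Wnt ligands, had the opposite pattern. It was lost, with 0% and 0% (del/del) against 6.3% and 6.19% (del/fl) (limma, adjusted p = 0.275).

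Of the 19 intracellular genes, 17 had no peak at their ends in any library, among them Ctnnb1 (beta-catenin), Apc, Axin1, Axin2 and the 3 Dvl genes. The other 2 were Amer1 and Lef1, a transcription factor partner of beta-catenin, which had 50% in each library. Of the 14 co-receptor and receptor genes 8 had none, Lrp5, Lrp6, Ror1, Ror2 and Ryk included, whereas Lgr5, an R-spondin receptor, had 100% and 87.3% (del/del) against 84.7% and 88.1% (del/fl). The 4 R-spondin genes, whose products strengthen Wnt signals, were all marked. Rspo1 had 62.4% and 62% (del/del) against 91.3% and 78.7% (del/fl), a difference of -22.8 points (SE 5.56, limma, adjusted p = 0.435). Rspo3 had 26.4% and 29.9% (del/del) against 41.7% and 36.7% (del/fl). Wls, the carrier that brings Wnt ligands to the cell surface, had 5.8% and 4.62% (del/del) against 25.9% and 14.8% (del/fl), and Notum, an enzyme that removes their lipid, had 40.7% and 50% (del/del) against 59.6% and 58.1% (del/fl). At Rspo1, Rspo3, Wls and Notum the genotypes did not overlap. Rnf43, a ubiquitin ligase that removes Frizzled from the surface, lay the other way at its ends, with 27.2% and 25.4% (del/del) against 19.2% and 17.1% (del/fl). Its body did not, with 9.28% and 9.48% (del/del) against 10.4% and 14.6% (del/fl). Sost, a secreted inhibitor of bone, was lost, with 0% and 0% (del/del) against 5.63% and 5.4% (del/fl) (limma, adjusted p = 0.275). At its start-site window the del/fl libraries had 10.8% and 0%. Of the 24 pathway genes with a peak at their ends, Porcn and Sost were the 2 lost and 0 were gained. Over autosomal genes with a peak, the shares were 2.48% lost and 1.56% gained. The 24 include X-linked genes, Porcn among them, for which no such share is given.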

How the data were processed

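H3K27me3 ChIP libraries (2 per genotype, named by GEO's labels) were used, and each was called against the whole-cell extract of that sample. The submitters' processing notes name bcl2fastq, Bowtie 0.12.9 and the build mm10. MACS2 2.1.0.20140616 was run on single samples in broad mode with the larger of the 2 libraries down-sampled, a q-value cutoff of 0.05 and 1 tag per position, per the file headers. The deposited broad lists nevertheless hold peaks with a q-value of up to 0.0983, and all were kept. The deposited columns are the pileup signal, the fold enrichment ratio, and the p-value and q-value as −log10, all by the authors' peak caller. From the peak intervals, percents of windows covered were computed with Python 3.11.15, numpy 2.4.6 and pandas 2.3.3. They were compared with limma 3.58.1 in R 4.3.3 (variance trend, robust, Benjamini-Hochberg over all genes with a peak in any library), after a check on simulated data. Coordinates come from a RefSeq table of GRCm38.p6. The members, the gene lists and the rules for naming genes (those gained, lost or not overlapping, with the largest differences or the smallest p per role) were chosen with earlier results of these data known. H3K27ac, Ctcf and parental alleles were not analysed here.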

Additional observations from a re-analysis of the deposited data

How the results depend on the processing

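limma called 0 members at gene ends and 0 over gene bodies in every setting that could be fitted, except 1 at gene ends with stricter peaks (Wnt6) and, with a library left out, 0 to 1 over gene bodies. The table with genes without any peak left in could not be fitted, since variances were then mostly 0. The fit with a replicate block also called 0 at gene ends and 0 over bodies, and the same-numbered libraries are not stated to share a line (correlation of their deviations 0.111 over 8064 autosomal genes). Members with all del/del libraries below all del/fl libraries at gene ends numbered 3 within 1 kb, 3 at the start alone, and 7 to 13 with a library left out (13 without del/del replicate 2 or del/fl replicate 1). Those above numbered 2 with lists of equal length and 1 to 9 with a library left out (9 without del/fl replicate 2). Over bodies they numbered 5 to 14 below (14 without del/del replicate 2, 13 without del/fl replicate 1) and 1 to 6 above (6 without del/del replicate 1) with a library left out, and 0 above with stricter peaks. With fewer libraries, groups separate more easily. The shares over all genes in these settings are not given, so the counts describe the members only. Role differences moved with stricter peaks to -5.25 points for ligands, -2.24 for receptors and -2.93 for inhibitors. At the start alone they were 0 for receptors and -2.76 for inhibitors. Only 6 receptors, without Fzd6, and 5 inhibitors had a matched start, so these are not the same sets of genes. After division by library cover the role differences were 1.12 for ligands and 1.97 for inhibitors. For inhibitors the sign also turned within 1 kb (0.85) and without del/fl replicate 2 (0.663), and with a library left out the differences ran from -3.91 to -0.614 for ligands and from -0.801 to -0.272 for receptors. Genes with a peak in all libraries numbered 0 receptors and 3 inhibitors with stricter peaks. Among single genes 3 differences changed sign: Wnt10a to 5.52 points and the body of Wnt7b to 0.691 after division by library cover, and Wnt10b to 1.09 at the start alone. The cause was not tested. The alternatives for the number of genes with a peak in all libraries, and for gene bodies that did not overlap, were chosen after seeing the data. Depth limits what a bare window shows, since signal under the threshold is not listed.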
